A study of Homo sapiens with 2 samples.

Results

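The histone genes on the array were the probes whose gene symbol in the deposited table starts with HIST and a digit, H2AF, H3F or H1F. There were 90 such probes of 29187, and 81 of them name 1 gene while 9 name several genes. The 81 cover 63 genes, of which 48 are replication-dependent genes (61 probes), 11 are variant genes (15 probes), 3 are testis-specific genes of the HIST clusters (3 probes) and 1 is H2AFX (2 probes). Transcripts were measured by single-colour Cy5 array in A375SM, a human melanoma line selected for high metastatic capacity. One derivative, labelled NFAT1-shRNA, carried a lentiviral short hairpin RNA (shRNA) against NFAT1, the calcium-regulated transcription factor encoded by NFATC2, and the other, labelled NT-shRNA, carried a non-targeting shRNA. Both had been transduced with lentivirus and sorted for the brighter 50% of GFP-positive cells, and the design text gives 3 biological replicates for each. The table holds 1 combined normalized intensity per probe and line, with an error whose kind is not stated, so the spread between the replicates is not known.

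Histones package DNA into nucleosomes, each a core of H2A, H2B, H3 and H4 closed by a linker histone of the H1 family. Replication-dependent histone genes lie in clusters and are transcribed in S phase, and their mRNAs end in a conserved stem-loop in place of a poly(A) tail. Variant (replacement) histone genes lie singly, are expressed through the cell cycle and give polyadenylated mRNAs. H2AFX gives both kinds of transcript, and several clustered genes can also give polyadenylated forms. The labelling protocol names an Eberwine-type amplification, which as a method starts from poly(A) tails, so the intensities of replication-dependent genes describe whatever part of their mRNA was labelled, and that share was not measured.

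Each intensity below is in the arbitrary units of the table and is followed by the deposited error. A probe counts as detected at a detection p-value under 0.01. The log2 values are ratios of the NFAT1-shRNA intensity to that under NT-shRNA as the authors deposited them, with a 95% interval propagated from the deposited errors and taken as normal. The lines were measured in bulk, so more cells of a kind and more RNA per cell cannot be told apart. Changed, rose and fell mean a Benjamini-Hochberg adjusted p under 0.05, computed from the authors' p-values over all 12149 probes with a ratio. Where another scale of the ratio is named, its p-value came instead from a normal test. That test set the value against the error propagated from the deposited errors, and it was adjusted in the same way. The targeted gene, NFATC2, showed no fall that would check the labels. Its brighter probe read 279 ± 15.7 under NFAT1-shRNA and 199 ± 15.2 under NT-shRNA, with a log2 value of 0.12 (-0.15 to 0.39) in the authors' deposited table and an adjusted p of 0.832, and its other probe was detected in neither line, so directions below are those between the lines as labelled. The intensities of the NFAT1-shRNA line were higher by 0.31 on the log2 scale for the median probe with a ratio. The authors' ratio removes this median shift, with a median of -0.01 over the same probes. All 8 melanocytic markers examined were detected in at least 1 line. Of the 7 with a ratio 2 rose, beside 3.33% of all genes taken at their brightest probe. The part of these 2 markers in the histone results was not tested. None of 4 leukocyte and 3 endothelial markers was detected, while 2 of 4 keratinocyte and 2 of 4 fibroblast markers were.

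The promoters of the 3 genes that changed and of 1 replication-dependent gene detected in both lines are shown with matches to short sequence elements. The TATA box, the CCAAT box and the octamer are known from the control of histone genes. The core of NFAT sites was searched for the targeted factor and is not counted among these. They are 250 bases up to the transcription start, from RefSeq on GRCh38.p14, written 5′ to 3′ with matches in capitals. The letters searched, each with its reverse complement, were TATAAA (the TATA box), CCAAT (the CCAAT box bound by NF-Y), ATTTGCAT (the octamer bound by POU2F1) and GGAAA (the core of NFAT sites), and no match overlapped another in these windows. RefSeq gives H2AFY a pair of start sites in this table, and both windows are shown.
H2AFY (MACROH2A1), first window, chr5:135399232-135399481, minus strand: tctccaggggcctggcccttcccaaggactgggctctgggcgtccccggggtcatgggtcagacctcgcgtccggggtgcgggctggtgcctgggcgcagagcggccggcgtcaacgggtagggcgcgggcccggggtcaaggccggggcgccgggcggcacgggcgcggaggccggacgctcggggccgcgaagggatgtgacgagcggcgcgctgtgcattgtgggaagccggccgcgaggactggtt
H2AFY (MACROH2A1), other window, chr5:135399888-135400137, minus strand: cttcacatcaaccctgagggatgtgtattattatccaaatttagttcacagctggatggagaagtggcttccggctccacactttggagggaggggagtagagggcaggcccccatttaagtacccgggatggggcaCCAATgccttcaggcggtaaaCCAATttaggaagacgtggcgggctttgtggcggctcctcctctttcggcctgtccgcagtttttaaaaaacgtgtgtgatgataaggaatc
H1FX (H1-10), chr3:129316287-129316536, minus strand: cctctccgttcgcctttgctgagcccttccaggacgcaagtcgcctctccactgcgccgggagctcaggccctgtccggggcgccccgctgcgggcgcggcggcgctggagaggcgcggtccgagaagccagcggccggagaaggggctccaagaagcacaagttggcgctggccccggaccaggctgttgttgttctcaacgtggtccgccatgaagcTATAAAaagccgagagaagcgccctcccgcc
H3F3B (H3-3B), chr17:75779780-75780029, minus strand: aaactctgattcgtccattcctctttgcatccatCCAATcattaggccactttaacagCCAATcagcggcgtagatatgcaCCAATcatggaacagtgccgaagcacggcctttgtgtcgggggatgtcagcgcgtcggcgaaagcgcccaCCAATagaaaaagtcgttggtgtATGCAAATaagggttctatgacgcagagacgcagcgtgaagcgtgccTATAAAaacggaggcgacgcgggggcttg
HIST1H2BO (H2BC17), chr6:27893175-27893424, plus strand: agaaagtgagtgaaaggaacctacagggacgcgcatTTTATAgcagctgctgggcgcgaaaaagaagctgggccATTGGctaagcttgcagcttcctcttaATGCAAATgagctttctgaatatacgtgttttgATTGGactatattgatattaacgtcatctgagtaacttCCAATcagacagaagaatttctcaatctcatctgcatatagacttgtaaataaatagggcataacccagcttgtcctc

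The H3F3B window held a TATA box 29 bases before the start, an octamer at 76 and 4 CCAAT boxes at 99, 169, 192 and 216. The H1FX window held a TATA box at 31 and no CCAAT box. The windows of H2AFY held no TATA box, and the second held CCAAT boxes at 92 and 113. The HIST1H2BO window held an octamer at 149 and CCAAT boxes at 78, 116 and 176, while its only exact TATA match lay far upstream, at 214. The GGAAA core was found in none of these 5 windows, which says only that these letters are not in them. Of 63 genes, 43 replication-dependent and 9 variant genes had a promoter in the table, in 46 and 11 windows. The octamer stood in 41.3% of replication-dependent windows and in 1.63% of all 35116 promoter windows, and it was found in 9 of 12 windows each for H2A and H2B genes but in none for H1 or H4 genes. The CCAAT box stood in 87.0% of replication-dependent windows, 63.6% of variant windows and 32.0% of all, and the TATA box in 65.2%, 27.3% and 10.7%. By family, the CCAAT box was in all replication-dependent H1, H2A, H2B and H3 windows but in only 3 of 9 H4 windows. GGAAA stood in 67.4% of replication-dependent windows, in 2 of 11 variant windows and in 55.6% of all windows.

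Few replication-dependent histone probes gave a detected signal. Of the 61, 3 were detected in both lines, 1 in the NFAT1-shRNA line alone and 57 in neither, which is 6.56% detected in either line against 32.9% of all probes. Over all 90 histone probes, 3 were detected under NFAT1-shRNA alone and none under NT-shRNA alone. Of all 29187 probes these were 813 (2.79%) and 411, so the histone counts are too small to show a direction. Of the 15 variant probes 8 were detected (53.3%), and both H2AFX probes were. None of the 5 H1, 11 H3 and 3 testis-specific probes of the clusters was detected, and the detected ones were 2 of 17 for H4, 1 of 13 for H2B and 1 of 15 for H2A. In the 57 undetected probes the intensity ran from -1.98 to 83.9 in the NFAT1-shRNA line (median 8.37) and from -4.61 to 52.8 in the NT-shRNA line (median 6.79), and it was higher in the NFAT1-shRNA line for 31 of them. Probes differ in their response, so these counts do not compare the levels of genes, and where log2 values of probes detected in neither line enter a count, a median or a range below, they are differences between signals not above background and no measure of a fold.

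**Figure D1:**
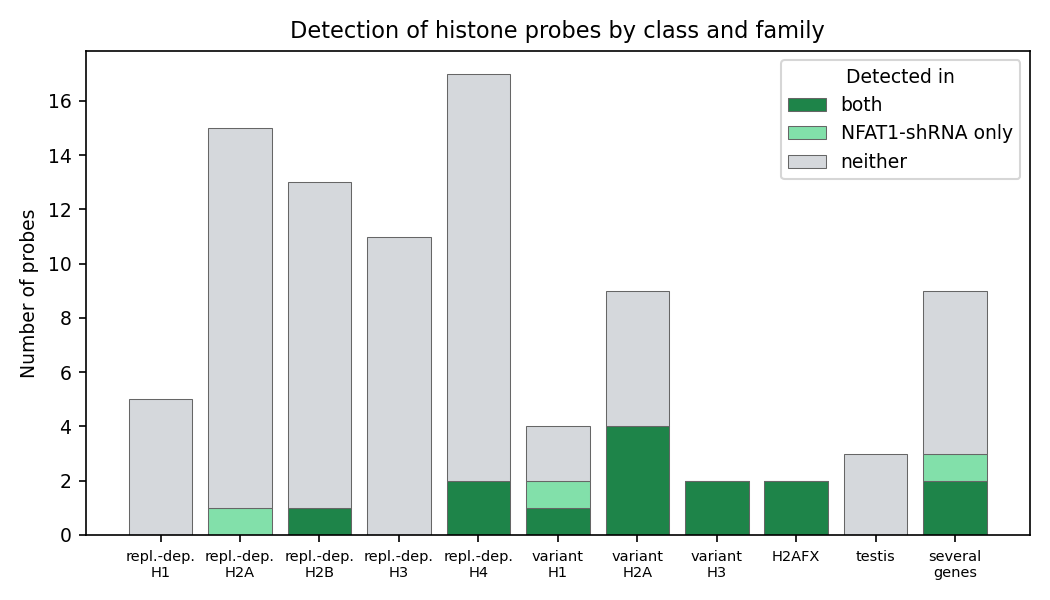
Number of histone probes by class and family, stacked by the lines in which they were detected (detection p-value under 0.01). The replication-dependent bars are nearly all undetected (57 of 61 probes), while 8 of 15 variant probes and both H2AFX probes were detected.

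Among the histone probes, 3 changed: H2AFY and H1FX rose and H3F3B fell in the line labelled NFAT1-shRNA, and all 3 are variant genes. They were 3 of 23 histone probes with a ratio, beside 6.91% of all 12149 probes with one. By direction these were 2 higher beside 3.23% of all probes, and 1 lower beside 3.68%. By sign alone, 15 of the 23 ratios were above 0, as were 48.9% of all. At an unadjusted p under 0.05 there were 9 of the 23, beside 18.3% of all probes. A ratio was given for 23 of the 90 (41.6% of all probes had one), and the other 67, of which 53 are replication-dependent probes, had none, so these counts do not cover all histone genes.

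**Figure D2:**
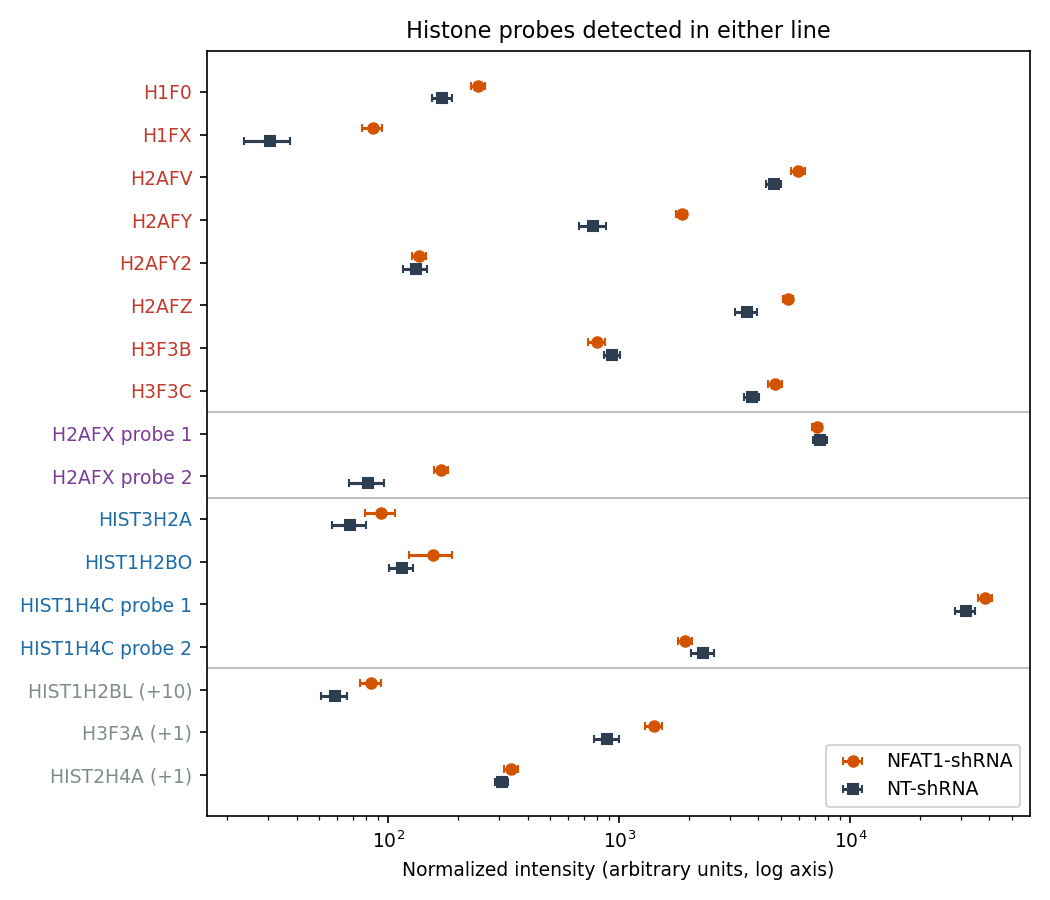
Normalized intensity, in arbitrary units on a log axis, of the 17 histone probes detected in either line, with the deposited error as bars (circles, NFAT1-shRNA; squares, NT-shRNA). Labels are coloured by class, from the top variant, H2AFX, replication-dependent and several-gene probes, with the number of further genes in brackets. The lines stand farthest apart for H1FX (85.4 against 30.6) and H2AFY (1863 against 771).

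H2AFY encodes macroH2A1, an H2A variant with a large globular domain on its C-terminal side that is known from the inactive X chromosome and other silent chromatin. Its probe read 1863 ± 105 under NFAT1-shRNA and 771 ± 101 under NT-shRNA, and the error ranges did not overlap before centring. The log2 value was 0.98 (0.58 to 1.39) in the authors' deposited table, 1.98-fold higher in the NFAT1-shRNA line, with an adjusted p of 0.000201. The table lists several transcripts for this 1 probe, so splice forms were not told apart. H2AFY2 encodes macroH2A2, the other macroH2A. It read 136 ± 9.28 against 131 ± 15.8, with overlapping error ranges and a log2 value of -0.29 (-0.68 to 0.11) in the authors' deposited table, and it did not pass (adjusted p 0.457). The difference between the 2 macroH2A genes was not tested.

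H1FX encodes the linker histone H1x, a replication-independent H1. It read 85.4 ± 8.40 under NFAT1-shRNA and 30.6 ± 6.88 under NT-shRNA, where it was not detected. The log2 value was 1.03 (0.33 to 1.72) in the authors' deposited table, with an adjusted p of 0.00488. Set against the faintest detected NT-shRNA signal, 60.4, with the median shift between the lines taken off, the NFAT1-shRNA intensity was 1.14-fold higher. This leaves out the deposited errors, and an undetected probe can read above 60.4 (HIST3H2A read 68.3), so it is no strict lower bound. The size depended on the scale: with an offset of 50 added to both intensities and the median removed its value was 0.51 with an adjusted p of 0.0133. H1F0 encodes H1.0, the linker histone that accumulates in differentiated cells. It read 245 ± 16.9 against 171 ± 17.3, with error ranges apart before the shift between the lines was taken off. Its log2 value of 0.15 (-0.20 to 0.50) in the authors' deposited table did not pass (adjusted p 0.821). The germline linker histones H1FNT (57.5 ± 10.5 against 42.1 ± 7.76) and H1FOO (5.36 ± 5.35 against -1.15 ± 7.59) were detected in neither line.

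H3F3A and H3F3B both encode histone H3.3, the replacement H3 placed in active genes and at telomeres. Of their probes H3F3B passed and H3F3A did not, and the difference between them was not tested. H3F3B read 797 ± 67.4 under NFAT1-shRNA and 931 ± 71.8 under NT-shRNA, so that its error ranges overlapped before centring. Its log2 value was -0.54 (-0.86 to -0.21) in the authors' deposited table, 1.45-fold lower in the NFAT1-shRNA line, with an adjusted p of 0.0177. The fall rests on the centring. By the normal test the plain quotient of the intensities was -0.23 on the log2 scale with an adjusted p of 0.331. By the same test the quotient minus its median was -0.54 with an adjusted p of 0.0183. The H3F3A probe also names the pseudogene H3F3AP4. It read 1414 ± 120 against 887 ± 108, with error ranges apart before centring. Its log2 value of 0.38 (-0.04 to 0.80) in the authors' deposited table did not pass (adjusted p 0.27). H3F3C, a retroposed copy of H3F3B that encodes H3.5, read 4731 ± 330 against 3748 ± 286. Its log2 value of 0.09 (-0.20 to 0.39) in the authors' deposited table did not pass. Because its sequence is close to that of the H3.3 genes, which of them it reports is uncertain. Whether the H3F3A and H3F3B probes also bind transcripts of related genes was not examined either.

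H2AFZ and H2AFV encode the forms of H2A.Z, the H2A variant found beside active transcription starts. H2AFZ read 5355 ± 266 under NFAT1-shRNA and 3558 ± 385 under NT-shRNA. Its log2 value of 0.36 (0.02 to 0.70) in the authors' deposited table did not pass (adjusted p 0.193). The detected H2AFV probe read 5940 ± 390 against 4654 ± 354, with a log2 value of 0.11 (-0.17 to 0.40) in the authors' deposited table and an adjusted p of 0.807, while its other probes were detected in neither line. The error ranges of the lines were apart for both genes before the shift between the lines was taken off. All 3 probes of H2AFJ, an H2A variant with replication-independent transcripts, were undetected, between 0.394 and 2.98 in the NFAT1-shRNA line and between -0.483 and 5.46 in the NT-shRNA line.

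H2AFX encodes H2A.X, the variant phosphorylated at DNA double-strand breaks, and its 2 probes disagreed in direction. The brighter read 7179 ± 356 under NFAT1-shRNA and 7386 ± 499 under NT-shRNA, and its log2 value was -0.27 (-0.50 to -0.03) in the authors' deposited table. The dimmer read 169 ± 12.3 against 81.7 ± 13.9, with a log2 value of 0.72 (0.20 to 1.25) in the authors' deposited table. Neither passed, with adjusted p-values of 0.0929 and 0.1, so no direction is given for the gene. Each passed on other scales, in opposite directions. The brighter had -0.35 (adjusted p 0.0408) with the quotient minus its median, and the dimmer had 0.50 (adjusted p 0.0437) with an offset of 50 and 1.05 (adjusted p 0.00123) with the plain quotient. The table names the same transcript for both.

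**Figure D3:**
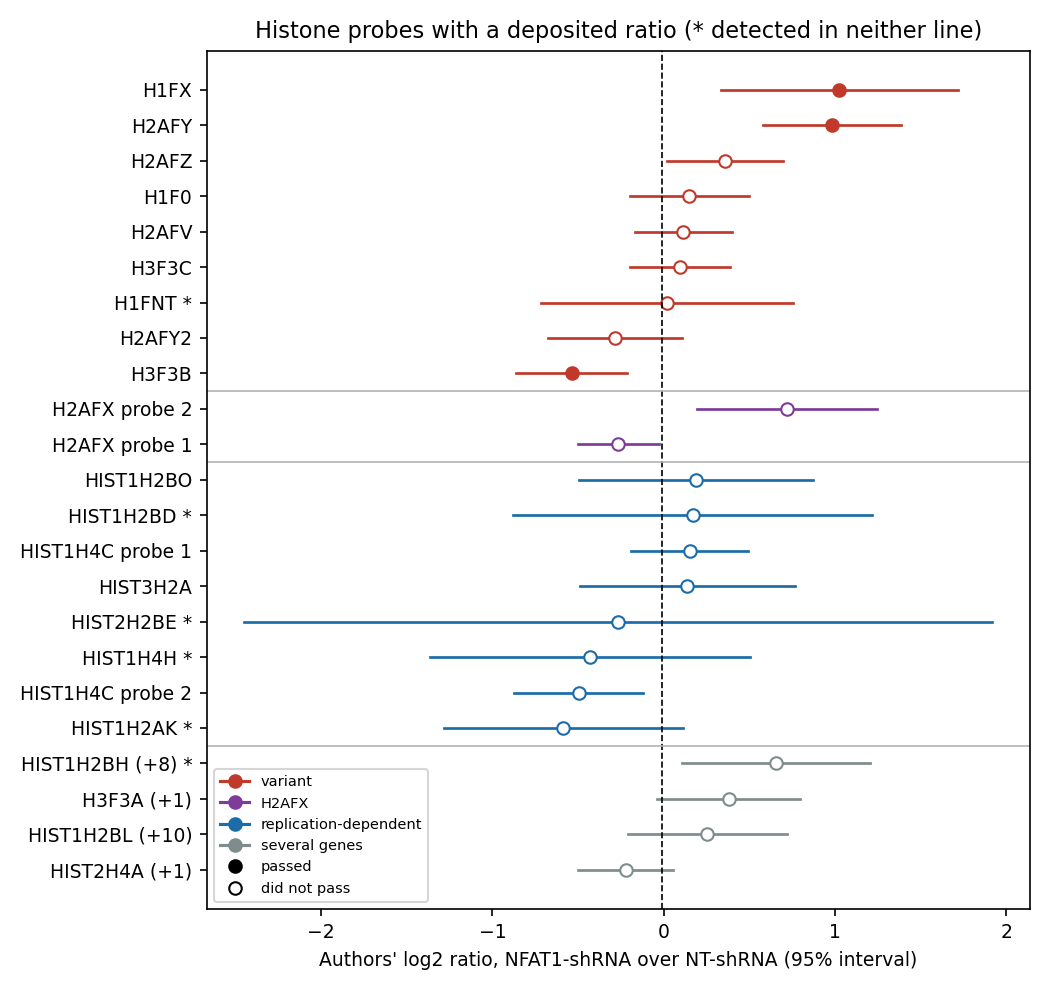
The authors' log2 ratio (NFAT1-shRNA over NT-shRNA) with 95% intervals from the deposited errors for the 23 histone probes with a ratio, grouped by class, where the dashed line is the median of all probes (-0.01). Filled points passed at an adjusted p under 0.05 (H1FX, H2AFY and H3F3B), open points did not, and an asterisk marks probes detected in neither line.

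No replication-dependent probe passed with the authors' ratio, among 8 that have one (at an unadjusted p under 0.05 there was 1, the dimmer HIST1H4C probe). Of all probes with a ratio 6.91% passed, and 4 of the 8 were detected in neither line, so this count does not set the class apart. HIST1H4C, which encodes the core histone H4, was the one gene of the class with 2 detected probes. Whether these probes also bind transcripts of other H4 genes was not examined. One read 38413 ± 2756 under NFAT1-shRNA and 31578 ± 3090 under NT-shRNA, with a log2 value of 0.15 (-0.19 to 0.49) in the authors' deposited table and an adjusted p of 0.77. The other read 1923 ± 135 against 2301 ± 261, with a log2 value of -0.50 (-0.87 to -0.12) in the authors' deposited table and an adjusted p of 0.128. The probes thus lay on opposite sides of 0 and neither passed with the authors' ratio, while the dimmer passed with the quotient of the intensities minus its median (-0.57, adjusted p 0.0372). HIST1H2BO, an H2B gene, read 155 ± 32.7 against 114 ± 13.7, with overlapping error ranges and a log2 value of 0.19 (-0.50 to 0.87) in the authors' deposited table that did not pass (adjusted p 0.872). HIST3H2A, an H2A gene outside the large clusters, read 92.7 ± 13.7 under NFAT1-shRNA and 68.3 ± 11.3 under NT-shRNA, where it was not detected. The error ranges overlapped, and its log2 value of 0.14 (-0.49 to 0.77) in the authors' deposited table did not pass (adjusted p 0.941).

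The rest of the 10 brightest replication-dependent probes were detected in neither line. HIST1H2BD read 83.9 ± 15.2 under NFAT1-shRNA and 43.2 ± 14.0 under NT-shRNA. HIST1H2AK read 42.0 ± 8.44 against 52.8 ± 7.62, and HIST1H4H read 50.0 ± 7.37 against 41.0 ± 12.1. HIST2H2BE read 25.1 ± 16.3 against 43.8 ± 18.2. All 4 had a log2 value in the authors' deposited table, between signals not above background, and none passed. HIST1H3C read 34.4 ± 7.67 against 33.9 ± 11.9 and HIST1H1A, a linker histone gene, 26.7 ± 6.23 against 31.2 ± 5.93, both without a ratio. HIST1H2BD and HIST2H2BE belong to 5 replication-dependent genes also known to give polyadenylated transcripts, and the other three were undetected as well. HIST1H1C read 13.4 ± 5.98 against 12.1 ± 4.25, HIST1H2AC 14.6 ± 6.95 against 9.10 ± 4.76, and HIST1H2BK 25.1 ± 10.0 against 13.7 ± 5.96.

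The class medians lay near that of all probes. The median of the log2 values in the authors' deposited table was -0.06 over the 8 replication-dependent probes with a ratio, 0.11 over the 9 variant probes and -0.01 over all probes. Of the 8, 4 were detected in neither line, and of the 9, 1 was. Values in that table ran from -0.59 to 0.19 in the first class and from -0.54 to 1.03 in the second. The sign of the replication-dependent median is not settled, since it was 0.14 with each gene taken at its brightest probe. In intensity, 12 of 15 variant and 34 of 61 replication-dependent probes were higher under NFAT1-shRNA, beside 20280 of all 29187.

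The 9 probes that name several paralogs together name 27 genes, 8 of which have a probe of their own, and their signal cannot be given to 1 gene. Each of the 9 read higher in the NFAT1-shRNA line before centring, as did 20280 of all 29187 probes, and 6 of the 9 were detected in neither line. Only 4 of them had a ratio, and none of these passed, beside 6.91% of all probes with a ratio. HIST2H4A with HIST2H4B, an identical pair of H4 genes, read 341 ± 24.4 under NFAT1-shRNA and 309 ± 20.6 under NT-shRNA. The pair had a log2 value of -0.22 (-0.50 to 0.06) in the authors' deposited table, with an adjusted p of 0.423. One H2B probe naming 11 genes, HIST1H2BL first, read 84.0 ± 8.66 against 58.6 ± 7.50 and was not detected under NT-shRNA. Its log2 value in the authors' deposited table was 0.26 (-0.21 to 0.72), with an adjusted p of 0.757. Another H2B probe naming 9 genes, HIST1H2BH first, read 52.6 ± 6.08 against 29.0 ± 4.54 and was detected in neither line. The remaining H2B probes, naming 13, 14 and 15 genes (the 14 include ABCF2, which is no histone), and the probes for HIST2H3C with HIST2H3A and for the H2AFB genes were also undetected.

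Among genes that transcribe, process, carry and deposit histones, VPS72 rose and TNPO1 and SET fell. Of 16 genes of histone gene transcription and 3′ end processing, 13 had a ratio. They include NPAT, the cyclin E-dependent activator of the clusters, and SLBP, which binds the stem-loop. None of the 13 passed by the adjusted p-values, with a median log2 value of -0.01 in the authors' deposited table. At an unadjusted p under 0.05 there was 1, RDBP, beside 19.2% of all genes. SLBP read 127 ± 10.4 against 84.0 ± 14.7, with a log2 value of 0.25 (-0.30 to 0.80) in the authors' deposited table, and NPAT was detected in neither line. Of 28 histone chaperone and deposition genes, 21 had a ratio, some of them detected in neither line. Among the 21, 3 passed, 1 upward and 2 downward (7 at an unadjusted p under 0.05), and the median was 0.03 in the authors' deposited table. Of all 9516 genes with a ratio, taken at their brightest probe, 7.36% passed, 3.33% upward and 4.02% downward, and the median was -0.02 in the authors' deposited table. VPS72, an H2A.Z-binding subunit of the SRCAP complex, read 712 ± 46.5 against 412 ± 33.9 and rose, with a log2 value of 0.45 (0.16 to 0.75) in the authors' deposited table and an adjusted p of 0.0305. TNPO1, a nuclear import receptor, read 296 ± 20.9 against 361 ± 23.3 and fell, with -0.64 (-0.91 to -0.37) in the authors' deposited table and an adjusted p of 0.00376. The histone-binding protein SET read 6581 ± 422 against 7621 ± 650, with error ranges that overlapped before centring. It fell by the authors' ratio, with -0.43 (-0.73 to -0.13) in the authors' deposited table and an adjusted p of 0.0386. Of 30 DNA replication and S phase genes, 28 had a ratio. Among these, CDK2 (3335 ± 140 against 1976 ± 120) and FEN1 (21494 ± 943 against 15466 ± 1167) rose. Their log2 values in the authors' deposited table were 0.51 and 0.34 with adjusted p-values of 1.94e-05 and 0.0412. The other 26 did not pass, 8 of the 28 had an unadjusted p under 0.05, and the median was 0.09 in the authors' deposited table. CENPA, the centromeric H3 variant that the symbol rule does not take in, read 1309 ± 105 against 974 ± 115 and did not pass (log2 value 0.14, -0.26 to 0.54, in the authors' deposited table).

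The calls were set against 4 further scales of the ratio, on which the normal test took the place of the authors' p-values. H2AFY stayed between 0.96 and 1.27 on the log2 scale and passed on all of them. H1FX stayed between 0.51 and 1.48 and also passed on all 4, while H3F3B passed on 3, all but the plain quotient. Without centring 94.0% of all calls were higher in the NFAT1-shRNA line, against 46.7% with the authors' ratio, and the histone calls were 7, all of them higher.

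**Figure D4:**
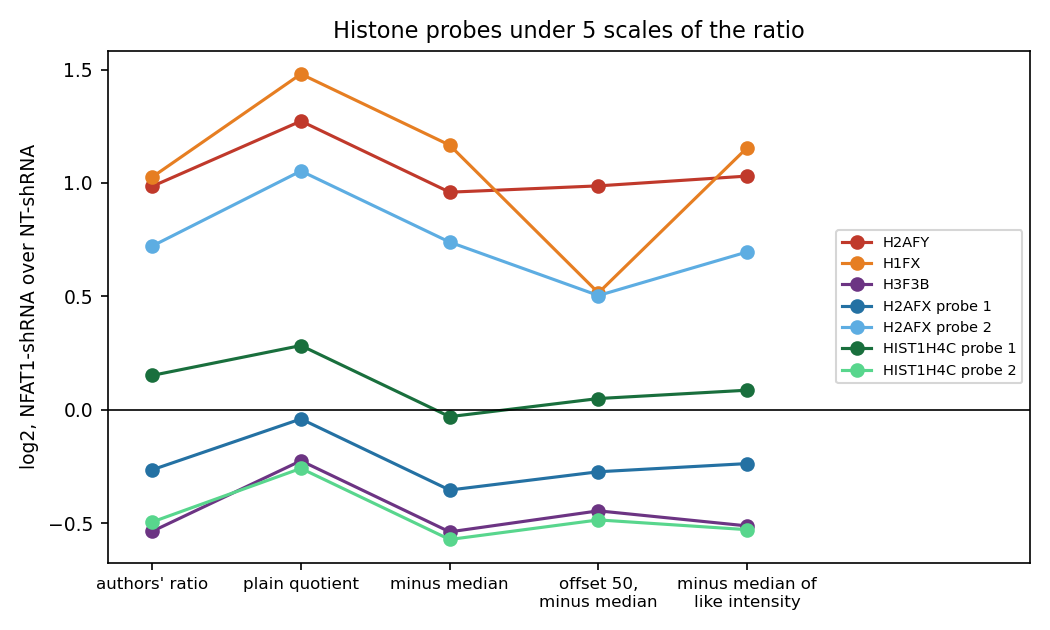
Log2 value of 7 histone probes under the authors' ratio and 4 alternative scales of the deposited intensities, with lines joining the values of a probe. H2AFY and H1FX lie above 0 on every scale, H3F3B lies below 0 on every scale, and the probes of H2AFX and of HIST1H4C lie apart from each other, with HIST1H4C probe 1 crossing 0 at the quotient minus its median (-0.03).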

How the data were processed

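The authors' deposited table of normalized intensities was used, with 1 combined value per probe for each line. Per the file headers it holds a detection p-value, a normalized intensity on a linear scale and its error for each line, and the authors' log2 ratio with its p-value. The sources used here do not give how the authors normalized, combined the 3 replicates or computed errors and p-values, and the labels' extraction and labelling protocols name different amplification kits. The intensities of the series matrix differed from these by at most 4.99e-07 of each value.

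A test across arrays, planned only for the case of a value per array, could not be run. The authors' p-values were adjusted by Benjamini-Hochberg over all 12149 probes with one (Python 3.11.15, scipy 1.17.1), and intervals were propagated from the 2 errors. On the other scales the p-values came from a normal test of the value over its propagated error. The calling on centred quotients was tried on simulated data. The noise of both lines was set from the relative errors of the NFAT1-shRNA line alone, cut to a fixed range. Some histone probes, H1FX under NT-shRNA among them, have larger errors than that range allows. The trial therefore does not cover faint probes, and it does not test the authors' p-values. Related genes were taken at their brightest probe of 1 gene. All 63 single-gene histone symbols matched a RefSeq gene (GRCh38.p14). Probe sequences were not at hand, so binding of a probe to transcripts of related histone genes could not be examined. The members, classes and lists were chosen with earlier results of these data known. Named are probes that changed, detected variants, the 10 brightest replication-dependent probes, 5 genes with known polyadenylated forms and called members of the related lists. For the H1FX fold against the faintest detected signal, the dim line was taken at its own value or at that signal (60.4 under NT-shRNA), whichever was larger. The 1.24-fold median shift was removed. The number of arrays limits the precision.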

Additional observations from a re-analysis of the deposited data

How the results depend on the processing

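The count of 3 changed histone probes was 7 with the plain quotient of the intensities, 5 with the quotient minus its median and 4 with an offset of 50 minus the median, and it was 2 or 3 under the other 5 alternatives (2 with probes detected in both lines, 2 at an adjusted p under 0.01). The calls gained were the brighter H2AFX probe and the dimmer HIST1H4C probe with the quotient minus its median, the dimmer H2AFX probe with the offset, and with the plain quotient H1F0, H2AFZ, H3F3A, the dimmer H2AFX probe and the probe of HIST1H2BH. With the plain quotient the variant median was 0.45, H3F3B missed the threshold at -0.23, H2AFY2 turned to 0.051, HIST1H4H to 0.29 and the HIST2H4A pair to 0.14. HIST1H4C probe 1 turned to -0.031 with the quotient minus its median, and H1FNT to -0.0099 with the offset of 50; none of these 5 reversals was of a probe that had passed. For the histone transcription and processing list the plain quotient gave a median of 0.27 and the quotient minus its median 1 call in place of 0. For the chaperone list the plain quotient gave 6 calls and a median of 0.39, and for the S phase list 10 calls and a median of 0.39. The chaperone count of 3 was 4 with the offset and 2 with the quotient minus the median of probes of like intensity. The S phase count of 2 was 1 with the quotient minus its median and 1 with the offset. The plain quotient keeps the 0.31 shift between the lines by construction; the cause of the other differences was not tested. The replication-dependent median was between -0.17 and 0.28 under its 9 alternatives. No paired analysis was possible because the table gives no value per replicate, and for the same reason no replicate could be left out. The series matrix held no other values. Signal over background limits 73 of the 90 probes, which were detected in neither line.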

Other observations

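Some deposited histone values carry errors far above their signal. A probe naming 13 H2B genes, HIST1H2BM first, read 5.05 under NT-shRNA with a deposited error of 723, and its NFAT1-shRNA value of 7.63 had one of 11.0. HIST1H2AG read 0.676 under NFAT1-shRNA with an error of 76.5, and HIST1H2AJ had an error of 51.3 there, while their NT-shRNA errors were 4.63 and 6.01. Over the whole array, 44 probes have an error over 500 beside an intensity under 100 in the same line.

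The authors' log2 ratio is not a fixed shift of the quotient of the deposited intensities. Over all probes with a ratio the ratio minus the quotient had a median of -0.33, with a 5th to 95th percentile range of -0.59 to -0.16, and 4 of the 23 histone probes lay outside that range. The differences were -0.79 for HIST1H2BD, -0.72 for HIST1H4H, where the sign of the quotient and that of the ratio were opposite, and 0.54 for HIST2H2BE. The fourth was the bright HIST1H4C probe, with a difference of -0.13. The first 3 of these were detected in neither line, so their quotients and ratios compare signals not above background.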
